A study of Sus scrofa with 4 samples.

Results

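The endothelial cells of regenerated pig bone, the cells that line its blood vessels, were taken from droplet single-cell RNA libraries as the cells with unique molecular identifiers (UMIs, counted transcript molecules) of at least 3 of 9 endothelial genes. Those genes were VWF, CDH5, KDR, EGFL7, PLVAP, EMCN, CLDN5, ESAM and TEK. A cell also had to have at least 200 genes, under 20% of its UMIs in mitochondrial genes, 0 UMIs of CD3E, CD79B and CSF1R, at most 2 UMIs of COL1A1 and COL1A2 together and at most 1 UMI of RGS5. The conditions kept 414 cells of the 50935 that passed the filters on genes and mitochondrial UMIs. The cells were thus chosen by the measured values of these 15 genes, whose levels are given as a description and support nothing.

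The study asked how peptides that promote bone growth act in bone regeneration in pigs. The 1797 group received a peptide called 1797 and the control group a control peptide, with 2 libraries each, and other controls mentioned for the series were not analysed here. Both groups were regenerated bone of Bama mini-pigs, a small pig breed, aged 8 months, digested with type I collagenase and freed of red blood cells. No gene deletion, transgene or other agent is labelled in either group, and nothing in the labels tells whether each library is a different animal. The p-values thus rest on the spread between libraries, part or all of which may be technical.

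Endothelial cells line arteries, capillaries, veins and, in marrow, the wide sinusoids through which blood cells pass. They respond to vascular endothelial growth factor through KDR and FLT1, to angiopoietins through TEK, and to Notch ligands when arteries form or sprouts are patterned. In bone they also secrete signals that reach osteoblast-lineage and blood-forming cells, so vessel growth and bone formation proceed side by side in repair.

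The label was checked against genes that the rule did not use. The vascular endothelial growth factor receptor FLT1 was found in 87.6% and 90.2% of the cells in the 1797 libraries and in 79.2% and 71.4% in the controls. Among cells with at least 1000 UMIs, thinned to 1000, the FLT1 shares were 55.7% and 51.2% in the 1797 libraries, against 61.7% and 60% in the controls. The order of the groups was thus reversed at equal depth. In CD3E-positive cells without any rule gene, where FLT1 served as a measure of free RNA, it was found at full depth in 3.64% and 1.96% against 3.11% and 4.24%. Those T cells had median depths of 6607 and 7484.5 UMIs in the 1797 libraries, against 7184 and 7703.5 in the controls. T cells with UMIs of a rule gene were left out of them, so these shares may understate free endothelial RNA. The leukocyte gene PTPRC, which the rule did not exclude, had a UMI in 26.9% and 34.1% of the selected cells of the 1797 libraries, against 37.5% and 31.4% of those of the controls, and in 93.6% to 98.2% of the T cells. Among the rule genes, given as a description, VWF, the clotting protein stored in endothelial granules, had a UMI in 81.4% and 87.8% of the selected cells of the 1797 libraries and in 77.1% and 62.9% of those of the controls. PLVAP, the protein of the diaphragms of fenestrae and caveolae, had one in 92.4% and 87.8% against 83.3% and 82.9%. In cells thinned to 1000 UMIs the groups overlapped for VWF, at 32.6% and 34.1% against 27.7% and 36.7%. They also overlapped for PLVAP, at 55.7% and 48.8% against 51.1% and 63.3%. At full depth CLDN5, the tight junction claudin of endothelium, was found in fewer, 7.24% and 7.32% against 10.4% and 8.57%.

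The rule had sharp edges. A total of 1077 cells had 3 or more rule genes, and 509 of them were left out for collagen, 263 for CSF1R, 167 for CD3E, 51 for CD79B and 34 for RGS5, with some counted under several. Of the members, 59 had exactly 3 rule genes and 210 had 7 or more, while 180 cells just outside met every other condition with 2. Another 246 cells failed with 3 to 5 UMIs of collagen. The collagen condition removed unlike numbers per library, 198 and 19 cells in the 1797 libraries against 64 and 228 in the controls. Collagen UMIs were also found in T cells, which do not make it: 16.6% and 1.45% of T cells in the 1797 libraries, against 25.9% and 47.6% in the controls exceeded the limit. The part of free collagen RNA in the selection was not tested.

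The 414 cells were spread unevenly, with 290 and 41 in 1797 libraries 1 and 2 and 48 and 35 in control libraries 1 and 2. Their summed UMIs were 4085744 and 705570 in the 1797 libraries against 368741 and 257867 in the controls. The median endothelial cell had 12323 and 13973 UMIs in 1797 libraries 1 and 2, against 7723.5 and 5490 UMIs in control libraries 1 and 2. The selected 1797 cells were thus deeper in both libraries. All kept cells were shallower there, at 3966 and 3398 against 5512 and 4848 UMIs. The collagen limit is a fixed number of UMIs, and it removed deep cells. Cells with 3 or more rule genes over that limit had median depths of 24673 and 58043 UMIs in the 1797 libraries. In the controls they had 18956 and 28046 UMIs. The part of this step in the depths of the selected cells was not tested. No barcode of an endothelial cell recurred in an endothelial cell of another library (0 shared), and Scrublet called 5 of the 414 cells doublets, all in 1797 library 1.

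Endothelial cells made up 2.31% of kept cells in 1797 library 1 and 0.312% in 1797 library 2, against 0.358% in control library 1 and 0.295% in control library 2. The 95% exact binomial intervals, which cover counting error only, were 2.06% to 2.59% and 0.224% to 0.423% in the 1797 libraries and 0.264% to 0.475% and 0.206% to 0.41% in the controls. Library 1 of the 1797 group stood alone, at 6.46 times the next highest, and the other 1797 library lay between the controls. The mean share was 1.31% ± 1.42 in the 1797 libraries and 0.327% ± 0.0445 in the controls (SD, n = 2 each), a difference of 0.986 percentage points with a two-sided exact permutation p of 0.667. With 2 libraries against 2 that test cannot give a p below 0.333. Without 1797 library 1 the difference was -0.0148 points.

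The order of the other 3 libraries depended on the rule. Without the collagen limit the shares were 3.28% and 0.342% in the 1797 libraries, against 0.545% and 1.16% in the controls. Without any of the exclusion genes they were 4.53% and 0.753% against 1.07% and 2.25%. Among cells with at least 1000 UMIs, thinned to 1000 before the rule was applied, they were 1.54% and 0.153% against 0.285% and 0.537%. Library 1 of the 1797 group had the highest share in each of these settings, and 1797 library 2 the lowest.

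**Figure D1:**
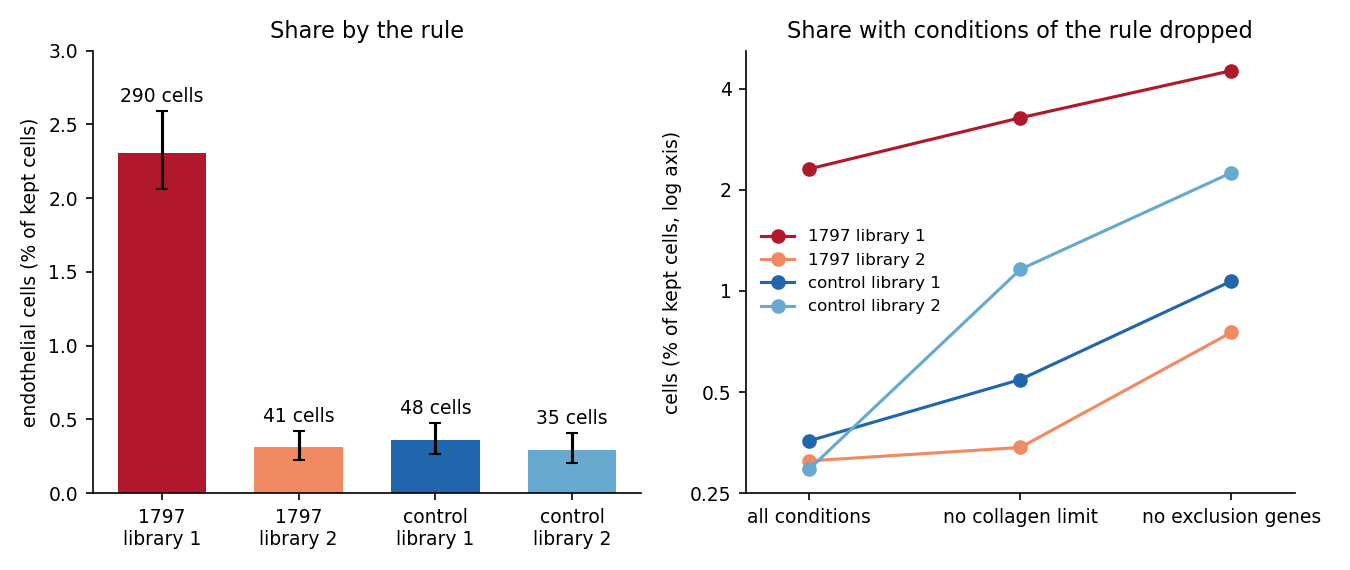
Left, endothelial cells as a percent of kept cells in each library (bars) with 95% exact binomial intervals (error bars) and cell numbers. Right, the same share on a log axis with all conditions, without the collagen limit and without any exclusion gene; 1797 library 1 is highest throughout, and control library 2 stands at 0.295%, 1.16% and 2.25%.

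Set against the other 50521 kept cells of the same libraries, the endothelial cells carried the wider endothelial program well beyond the 9 rule genes. Counts were summed per library and compared within libraries by edgeR's quasi-likelihood test with Benjamini-Hochberg adjustment, and 2212 of 15466 genes outside the rule (14.3%) were higher and 3165 (20.5%) lower. Of 30 endothelial genes outside the rule, 29 were higher, and their median log2 fold change was 4.68 against -0.21 over all genes tested. Genes that share cells with the rule genes were bound to be higher, so these values describe what was selected. The cells left out for collagen or leukocyte genes stand in the comparison group and lower the folds.

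Receptors for vessel growth and stability were among the genes that stood apart. FLT1 (chromosome 11, 5620698 to 5797095 in the Sscrofa11.1 build) was at 1183 and 1246 CPM (UMIs scaled to 1 fixed total per library) in the endothelial cells of the 1797 libraries and at 1158 and 1811 CPM in those of the controls, against 47.0 ± 36.4 CPM in the other kept cells (mean and SD, n = 4 libraries). Each endothelial value lay far above the other cells, with a log2 fold change of 5.09 ± 0.41 (SE). TIE1, the partner of the angiopoietin receptor TEK, averaged 114 ± 12.3 CPM in endothelial cells and 4.51 ± 3.16 CPM in the others (4.81 ± 0.39 on the log2 scale). ROBO4, a receptor that stabilises vessel walls, and APLNR, the apelin receptor, had log2 fold changes of 5.29 and 5.16. PECAM1, an adhesion molecule that leukocytes and platelets also carry, had 1453 ± 232 CPM against 116 ± 39.5 CPM and a log2 fold change of 3.56.

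Among genes with at least 50 CPM in every endothelial sum, LDB2, a cofactor of LIM-domain transcription factors, had the largest fold over the other cells, with 1630.0 ± 178 CPM in endothelial cells and 53.0 ± 51.1 CPM in the others (log2 fold change 5.57 ± 0.59). CAVIN2, which shapes caveolae, followed at 5.56, the plasminogen-binding lectin CLEC3B at 5.46 and MMRN2, a matrix protein of vessels, at 5.37. The prostaglandin transporter SLCO2A1 was at 5.22 and PTPRB, a phosphatase that acts on TEK, at 5.22. MECOM, a transcription factor also used by blood stem cells, had 707 ± 296 CPM against 25.3 ± 23.6 CPM. The ETS factor ERG had a smaller fold of 1.71. ICAM2, at 31.5 ± 11.3 against 22.1 ± 2.55 CPM, was the 1 gene of the 30 that did not pass (log2 fold change 0.29 ± 0.27) and is named because its value was seen.

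The vessel wall was well represented. Of 15 basement membrane genes 13 were higher and 1 lower than in the other cells, with a median log2 fold change of 3.30. COL4A1, a chain of collagen IV, had 2458 ± 658 CPM in endothelial cells and 241 ± 257 CPM in the others (4.01 ± 0.48). HSPG2, which encodes perlecan, had a log2 fold change of 4.51 and the vessel collagen COL15A1 of 4.46. Of 10 tested junction genes 9 were higher, among them JAM2, a junctional adhesion molecule, at 4.35 and TJP1, the scaffold ZO-1, at 2.82. Of 12 genes of caveolae, fenestrae and transcytosis 9 were higher, with the caveolin CAV1 at 4.68. In the haemostasis list 11 of 16 were higher, and PLAT, the tissue plasminogen activator, had 809 ± 351 CPM against 33.3 ± 23.7 CPM.

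Genes that mark arteries, sprouts and leukocyte traffic were mostly higher than in all other kept cells. The counts were 12 of 16 arterial genes, 14 of 16 sprouting genes and 9 of 10 leukocyte adhesion genes, beside 14.3% of all genes. Of 12 venous genes 7 were higher and 4 lower. DLL4, the Notch ligand of arteries and tip cells, had 62.7 ± 6.92 CPM in endothelial cells and 2.94 ± 1.93 CPM in the others (4.54), and APLN, a peptide of tip cells, 53.3 ± 19.6 against 1.71 ± 1.45 (5.17). SELE, the selectin on which leukocytes roll, had 77.5 ± 57.8 CPM against 3.21 ± 3.85 CPM, with a spread between libraries close to its mean. Notch genes were split, with 7 of 14 higher and 5 lower. NOTCH4, a receptor of endothelium, was higher (2.86) and NOTCH2 lower (-3.06). Against the stromal and mural cells compared below, 7 of 15 arterial, 9 of 16 sprouting and 9 of 10 leukocyte adhesion genes were higher. Of 12 venous genes 5 were higher and 5 lower there, beside 12.6% and 18.7% of all genes.

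Secreted signals with a known role in bone or marrow included several that were higher in endothelial cells than in all other kept cells. Of 26 such genes 25 were tested, 13 were higher and 6 lower, beside 14.3% and 20.5% of all genes. KITLG, the stem cell factor, had 417 and 700.1 CPM in the 1797 libraries, against 249.5 and 345 CPM in the controls, against 21.2 ± 18.7 CPM in the other cells (4.67 ± 0.60). CXCL12, the chemokine that retains blood-forming cells in marrow, had a log2 fold change of 4.62, and the bone morphogenetic proteins BMP2, BMP4 and BMP6 of 3.13, 2.65 and 2.78. TGFB1 was lower, at 324 ± 43.8 CPM in endothelial cells and 666 ± 84.1 CPM in the others (-1.18). Against the stromal and mural cells compared below, 10 of 24 such signals were higher and 10 lower, beside 12.6% and 18.7% of all genes. The median log2 fold change of the 24 was 0.02.

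Against all other kept cells, cell cycle and antigen presentation genes lay on the other side. Of 20 cell cycle genes 0 were higher and 12 lower by edgeR's test, with a median log2 fold change of -1.07, and HMGB2, a chromatin protein of dividing cells, had 61.9 ± 36.3 CPM in endothelial cells and 239 ± 87.3 CPM in the others. Of 10 MHC class II genes 7 were lower, but their transcripts were present, with CD74, the invariant chain, at 689 ± 75.1 against 942 ± 184 CPM. Against the stromal and mural cells compared below, 2 of the 10 were higher and 0 lower, beside 12.6% and 18.7% of all genes. Their median log2 fold change there was 0.72. CXCL8, the neutrophil chemokine, had 207 ± 128 CPM in endothelial cells and 1387 ± 831 CPM in all other kept cells (-2.91). The median over all genes in this comparison was -0.21 in the main fit, -0.13 under the RLE scaling and 0.03 in DESeq2. Such shifts are small beside the fold of CXCL8, but not beside the MHC class II median of -0.65.

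A narrower comparison used 2076 stromal and mural cells outside the rule, with at least 10 UMIs of the collagen genes or 2 of RGS5. Of 12795 genes 1617 (12.6%) were higher and 2396 (18.7%) lower in endothelial cells. All 30 endothelial genes outside the rule were higher, including ICAM2 (1.40), and the median log2 fold change was 4.35. Among genes with at least 50 CPM in every endothelial sum the fold was largest for FCN2, a ficolin of innate immunity, at 258 ± 170.3 CPM in endothelial cells and 4.22 ± 5.09 CPM in stromal and mural cells (6.36 ± 0.54). Interferon response genes were higher in 13 of 27 and lower in 0, with ISG15, a ubiquitin-like modifier, at 240.1 ± 63.0 against 53.2 ± 22.3 CPM.

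Some vessel-associated factors did not pass the threshold in this comparison. ANGPT2, which loosens vessels for sprouting, had 33.2 ± 24.2 CPM in endothelial cells and 27.2 ± 19.1 CPM in stromal and mural cells (0.20 ± 0.28 on the log2 scale, edgeR adjusted p = 0.626). The adhesion molecule VCAM1 had 114 ± 36.0 against 139 ± 42.7 CPM (-0.34 ± 0.33, edgeR adjusted p = 0.464), and BMP2 47.2 ± 7.14 against 29.9 ± 14.2 CPM (0.70 ± 0.30, edgeR adjusted p = 0.103). Of 14 mesenchymal genes 12 were lower in endothelial cells, with fibronectin, FN1, at 175 ± 109.5 against 1998 ± 941 CPM. The endothelial and the stromal and mural cells were chosen by opposite limits on collagen or RGS5 UMIs. Genes that share cells with these were bound to be lower, so such values describe what was selected. Without 1797 library 1 this comparison called 2653 genes in place of 4013.

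**Figure D2:**
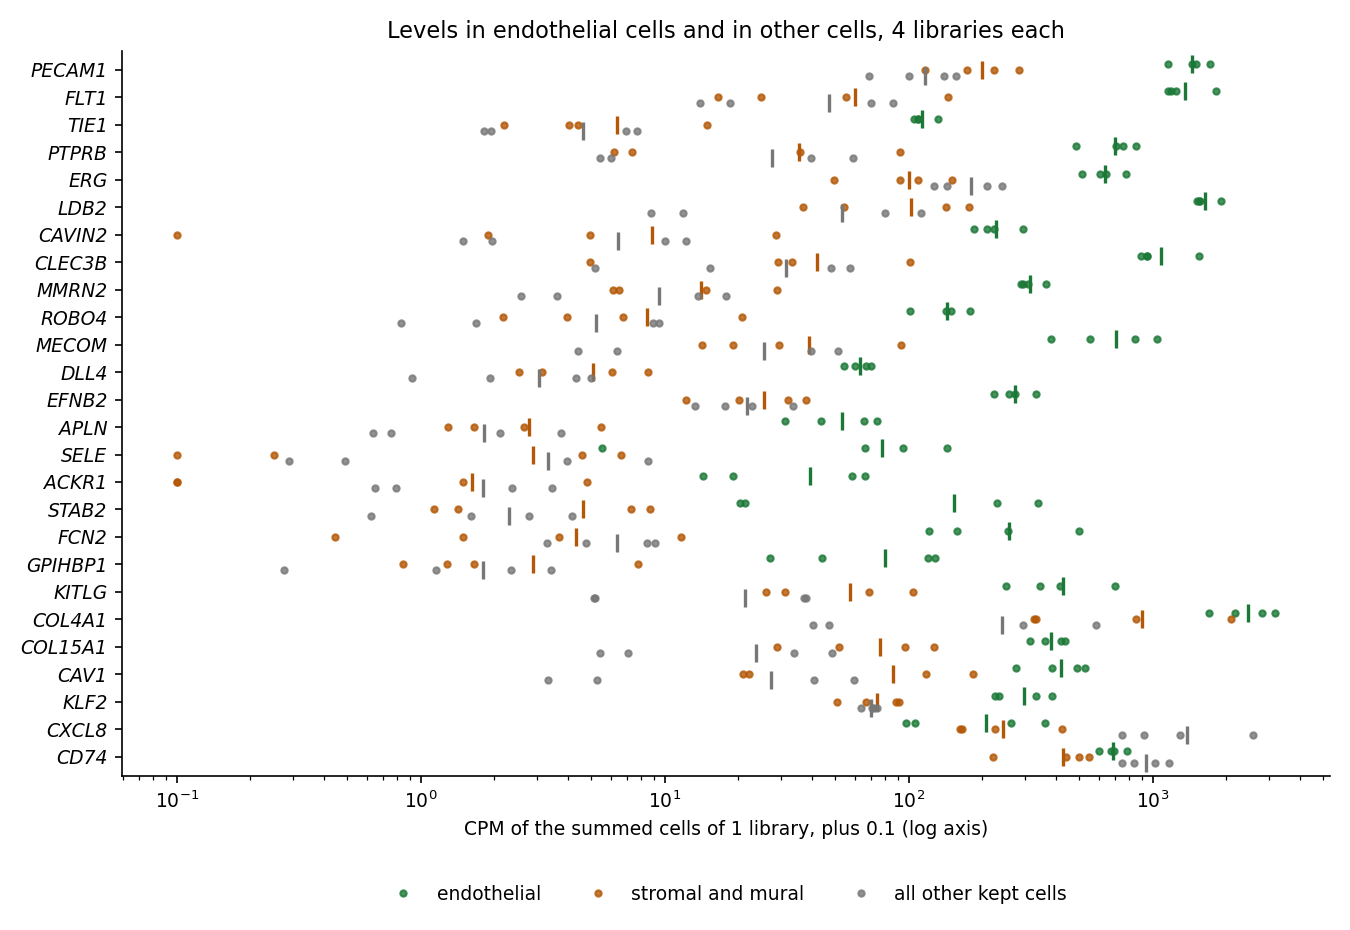
Levels of 26 genes in the summed cells of each library, in CPM plus 0.1 on a log axis, for endothelial cells (green), stromal and mural cells (brown) and all other kept cells (grey); points are the 4 libraries and ticks their means. FLT1 and most endothelial genes lie to the right of both other groups without overlap, while CXCL8 has its lowest mean in endothelial cells, at 207 CPM.

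The endothelial cells were not uniform. Leiden clustering within the 414 cells gave 7 clusters of 81, 80, 79, 54, 46, 44 and 30 cells. Their genes are given as descriptions, since the same counts made the clusters. By the marker lists the cluster of 54 cells was sinusoidal-like and that of 44 cells arterial-like, and the other 5 were left unnamed. The cluster of 54 cells also had 8 of 10 measured capillary genes higher and 4 more than 2-fold. The cluster of 30 cells had 4 of 9 sinusoidal genes and 5 of 10 capillary genes more than 2-fold higher, and was left unnamed for its macrophage genes and low depth.

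The sinusoidal-like cells carried STAB2, the scavenger receptor with which sinusoids take up hyaluronan, at 428 against 4.75 CPM in the other endothelial cells, with a UMI in 74.1% against 4.44% of cells. FCN2 was at 1207 against 58.5 CPM, the mannose receptor MRC1 at 169.7 against 17.6 CPM and the transcription factor MAF at 828 against 159 CPM. SEMA3A, a guidance factor, was at 308 against 8.26 CPM. FCN2 was not particular to it, since the cluster of 30 cells had 1349 against 172 CPM. Of 9 measured members of the sinusoidal list 8 were higher and 4 more than 2-fold, where 4.61% of all genes were more than 2-fold higher. LYVE1, the other hyaluronan receptor of the list, had 187 against 176 CPM.

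The arterial-like cells had the gap junction genes GJA5 and GJA4 at 71.7 against 0.434 CPM and 69.2 against 3.25 CPM in the other endothelial cells. CXCL12 was at 1071 against 73.1 CPM, while it was at 20.8 against 246 CPM in the sinusoidal-like cells. HEY1, a Notch target, was at 136 against 19.5 CPM, the arterial ephrin EFNB2 at 490.5 against 219 CPM and EDN1, the vasoconstrictor endothelin, at 295 against 58.6 CPM. Of 14 measured members of the arterial list 12 were higher and 9 more than 2-fold, where 2.52% of all genes were. The vein regulator NR2F2 had 56.8 against 126 CPM and SELE 19.8 against 143 CPM.

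The same genes met in the same cells. Of 56 cells with a STAB2 UMI 43 had FCN2, against 48 of 358 cells without (76.8% against 13.4%). MRC1 was found in 64.3% against 11.7% and SEMA3A in 46.4% against 4.19%. GJA5 was found in 1 of 56 STAB2 cells and in 19 of 358 others, and SELE in 5.36% against 28.2%. The median depth was 8784 UMIs in cells with STAB2 and 11574 in cells without, and cells with SELE were deeper than those without, at 17146 and 8431.5. The part of depth in the lower shares of GJA5 and SELE was not tested. CXCL12 was found in 16 of 20 cells with GJA5 and in 27.9% of the cells without.

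The unnamed clusters had single venous or sprouting genes among their higher ones. In the cluster of 80 cells SELE was at 273 against 74.2 CPM in the other endothelial cells, APLN at 116 against 52.5 CPM and the heat shock gene HSPH1 at 2036 against 749 CPM. Of 16 sprouting genes 6 were higher and 2 more than 2-fold, beside 1.01% of all genes, and of 10 venous genes 4 were higher. In the cluster of 79 cells SELP, the selectin that binds leukocytes and platelets, was at 118 against 14.1 CPM and SOX18, a factor of vessel development, at 855 against 271 CPM. There 5 of 10 venous and 9 of 16 sprouting genes were higher, beside 61.1% of all genes. That cluster was shallow, at a median of 7282 UMIs, and 12.4% of all genes were more than 2-fold higher in it. In the cluster of 81 cells PLPP3, which degrades lysophosphatidic acid, was at 2526 against 877 CPM and KLF2, a factor induced by flow, at 54.5 against 316 CPM. Of 12 flow response genes 0 were more than 2-fold higher there, beside 1.23% of all genes. The cluster held 74 cells of 1797 library 1 and 3 of 1797 library 2, against 1 and 3 of the controls, so library and subtype cannot be told apart in it.

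A pair of clusters carried leukocyte genes. In the cluster of 46 cells PTPRC, the common leukocyte antigen, was at 401 against 23.3 CPM in the other endothelial cells and CXCL8 at 1031 against 54.8 CPM, with PECAM1 at 666 against 1532 CPM and VWF at 183 against 456 CPM. Of 6 leukocyte markers 5 were more than 2-fold higher, beside 9.57% of all genes, and the cluster held all 5 cells called doublets. In the cluster of 30 cells, at a median of 1286 UMIs, the complement gene C1QA was at 804 against 5.58 CPM, with a UMI in 13.3% against 6.51% of cells, and 8 of 9 macrophage markers were more than 2-fold higher, beside 17.5% of all genes. The lipid carrier FABP4 was at 6459 against 1095 CPM. Together these 76 cells were 15.9% and 17.1% of the endothelial cells in the 1797 libraries, against 25% and 31.4% in the controls. By itself the cluster of 46 cells was 11.03% and 17.1% in the 1797 libraries, against 12.5% and 2.86% in the controls, which overlapped. The cluster of 30 cells was 4.83% and 0% against 12.5% and 28.6%. The order of the pooled shares thus came from the shallow cluster of 30 cells, and its cause was not tested.

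**Figure D3:**
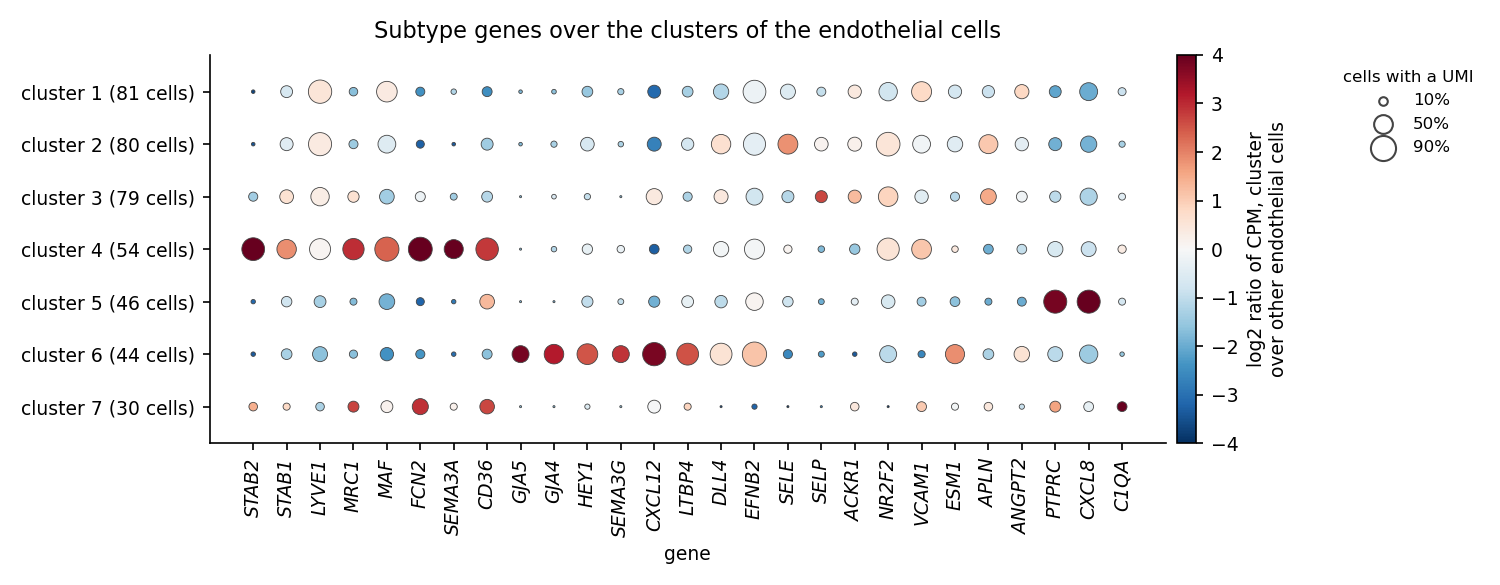
Subtype genes (columns) in the 7 clusters of endothelial cells (rows, with their cell numbers). Colour is the log2 ratio of CPM in the cluster over the other endothelial cells, drawn up to 4 either way, and dot size is the percent of cells with a UMI; STAB2, FCN2 and SEMA3A are high in the cluster of 54 cells, GJA5, GJA4 and CXCL12 in that of 44, and PTPRC and CXCL8 in that of 46.

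Between the peptides, 1 gene of the endothelial cells was called, and it was a sinusoidal one. STAB2 (chromosome 5, 80692459 to 80863221) had 20.3 and 21.3 CPM in the 1797 libraries, against 231 and 337 CPM in the controls. Both 1797 libraries lay far below both controls. The log2 fold change was -3.73 ± 0.36 (SE, edgeR adjusted p = 0.0453, n = 2 libraries each), so STAB2 fell. It was the 1 gene called lower of 6836 tested (0.0146%); edgeR called 0 higher, and 568 genes (8.31%) had an unadjusted p under 0.05. DESeq2 called 5 genes higher and 20 lower, with an adjusted p of 4.81e-12 for STAB2.

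Counted by cells, the controls were again above the 1797 libraries, though 1797 library 2 lay close to control library 2. A STAB2 UMI was found in 23 of 290 and 6 of 41 cells of the 1797 libraries (7.93% and 14.6%), against 20 of 48 and 7 of 35 of the controls (41.7% and 20%). In T cells, which lack this receptor, it was found in 0.340% and 0.354% in the 1797 libraries, against 0.484% and 0.612% in the controls. T cells with UMIs of a rule gene were left out there, so these shares may understate free endothelial RNA. With each cell thinned to 1000 UMIs the endothelial shares were 2.13% and 2.44% in the 1797 libraries, against 21.3% and 6.67% in the controls. The highest single cell held 15.7% and 33.3% of the STAB2 UMIs in the 1797 libraries, against 38.8% and 73.6% in the controls. Without that cell the levels were 17.2 and 14.9 CPM in the 1797 libraries, against 145 and 93.3 CPM in the controls, which again did not overlap. Fewer sinusoidal cells and less STAB2 RNA per cell cannot be told apart in the sums.

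The call was lost in some settings and kept in others. With the replicate number as a block STAB2 stood at -3.67 on the log2 scale (edgeR adjusted p = 0.278), with a stricter cell filter -3.74 (0.129 by edgeR) and with 4 rule genes required -3.69 (0.0651 by edgeR). It was kept with PTPRC also at 0 (edgeR adjusted p = 0.0354), with doublets removed (0.0424 by edgeR) and with each library left out in turn (at most 0.0355 by edgeR). Without the collagen limit the log2 fold change was -2.84 with an edgeR adjusted p of 0.726, and without any exclusion gene -2.86 with an adjusted p of 1. STAB2 was lower in the 1797 libraries in every one of these settings.

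Other genes of the sinusoidal-like cells had lower values in both 1797 libraries without passing edgeR's test. SEMA3A had 20.3 and 7.09 CPM in the 1797 libraries, against 189.8 and 233 CPM in the controls (log2 fold change -3.70 ± 0.46, edgeR adjusted p = 0.131). MRC1 had 22.8 and 17.0 against 155 and 81.4 CPM (-2.50 ± 0.43, edgeR adjusted p = 0.195), and DESeq2 called both genes. Without any exclusion gene the log2 fold change of MRC1 was 0.125. FCN2 had 158 and 120.5 against 499 and 256 CPM and CD36, a fatty acid receptor of capillaries and sinusoids, 83.7 and 83.6 against 420.4 and 136 CPM. Without the highest cell of each library FCN2 was at 144 and 68.8 CPM in the 1797 libraries, against 432 and 111 CPM in the controls, which overlapped, while SEMA3A, MRC1 and CD36 did not overlap. Of 11 sinusoidal and marrow genes, 7 passed the filter on low counts, and 6 of those had a lower and 1 a higher mean estimate. An unadjusted p under 0.05 was reached by 4 lower genes and 0 higher ones, where 4.8% and 3.51% of all genes did so. STAB2 itself is among the 7 and among the 4, so the counts and the median of this list partly restate its call. The median log2 fold change of the 7 was -1.12, beside 0.00483 over all genes tested, and -1.44 to -0.55 with 1 library left out. LYVE1 overlapped between the groups, at 181 and 162 against 111 and 256 CPM.

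Macrophage transcripts moved with these genes, and MRC1 belongs to both lists. Of 12 macrophage and monocyte markers 3 were tested, and all 3 were lower in both 1797 libraries than in both controls, as were 21.7% of all genes. The summed level of the 12 was 94.2 and 95 CPM in the 1797 libraries, against 266 and 593 CPM in the controls, with CSF1R at 0 by the rule. When the 76 cells of the leukocyte clusters were left out, STAB2 had a log2 fold change of -3.80 (edgeR adjusted p = 0.0218), as large as with them, and SEMA3A was also called. Clustering repeated without the 568 genes gave a cluster of 25 cells, 24 of them from the sinusoidal-like cluster, which is 24 of its 54 cells. It held 3.10% and 12.2% of the endothelial cells in the 1797 libraries, against 16.7% and 8.57% in the controls, and these overlapped.

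**Figure D4:**
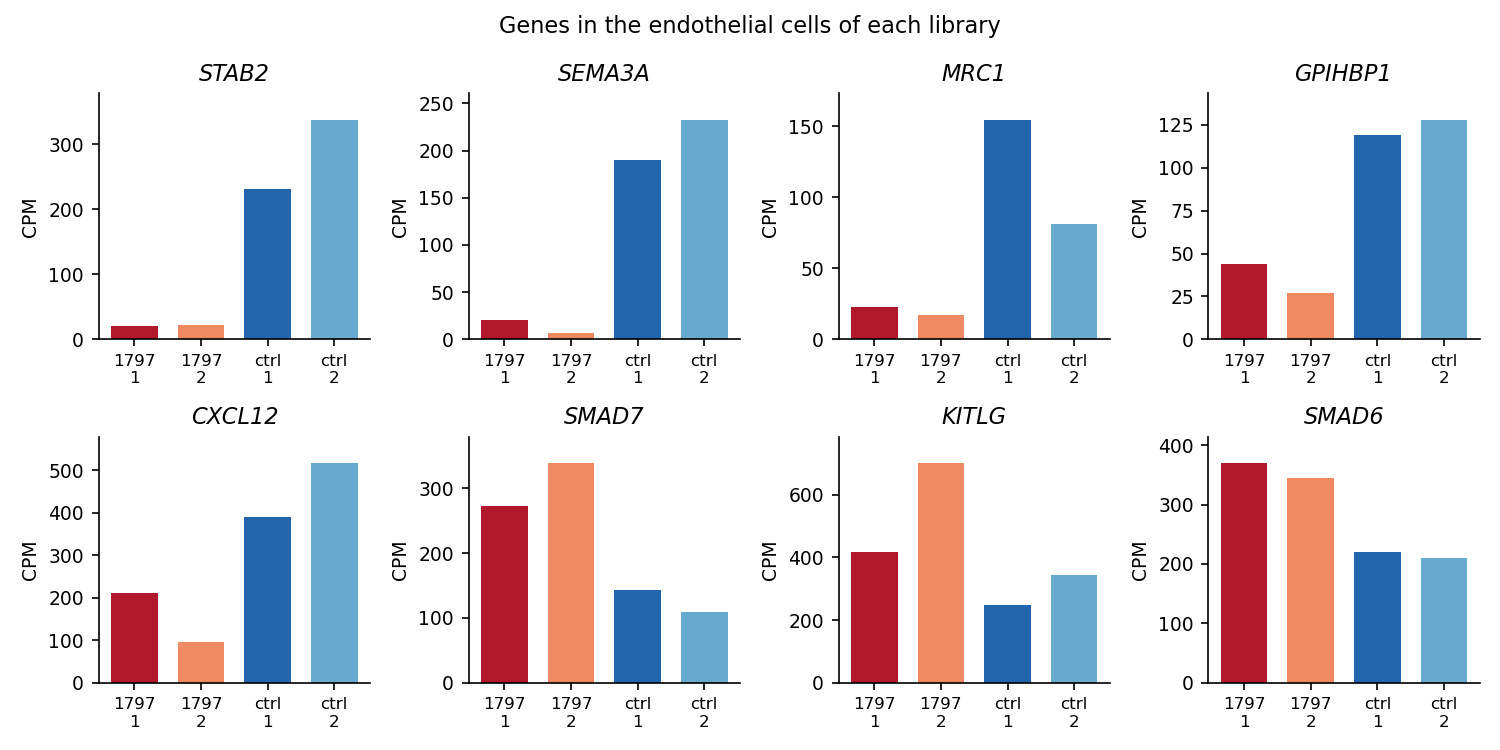
Levels of 8 genes in the summed endothelial cells of each library (1 bar per library, CPM on linear axes from 0), with the 1797 libraries left of the controls (ctrl). STAB2, SEMA3A, MRC1, GPIHBP1 and CXCL12 have lower and SMAD7, KITLG and SMAD6 higher values in both 1797 libraries than in both controls. Of all tested genes 21.7% were lower and 17.6% higher in this way. STAB2 is the 1 gene of the 8 that passed edgeR's test.

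Arterial and capillary genes did not pass the test. CXCL12 had 210.2 and 96.4 CPM in the 1797 libraries, against 391 and 516 CPM in the controls (-1.49 ± 0.39, edgeR adjusted p = 0.44), but 1 cell held 67.4% and 59.4% of the control UMIs, and without the highest cell of each library the levels were 174 and 61.5 CPM against 132 and 233 CPM, which overlapped. GJA5 UMIs in each control came from 1 cell. Of 9 tested capillary genes 7 had a lower estimate, with a median of -0.58 (-1.09 to -0.09 with 1 library left out). GPIHBP1, which carries lipoprotein lipase to the lumen, had 43.8 and 26.9 against 119 and 128 CPM (-1.71 ± 0.37, edgeR adjusted p = 0.334). It did not overlap between the groups, as was so for 21.7% of all genes on the lower side.

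Of the BMP and TGF-beta response list 0 genes passed the test. SMAD7, an inhibitory SMAD, had 272 and 339 CPM in the 1797 libraries, against 144 and 109 CPM in the controls (1.29 ± 0.30, edgeR adjusted p = 0.412), and SMAD6, the inhibitor of the BMP branch, 369 and 344 against 219.7 and 209 CPM (0.77 ± 0.25, edgeR adjusted p = 0.518). The log2 fold change of SMAD7 was 0.746 without the collagen limit and 0.473 without any exclusion gene. BMPR2, a BMP receptor, had 1014 and 992 against 738 and 644 CPM, while the target ID1 had 277 and 272 against 458 and 524 CPM (-0.80 ± 0.24). Neither group overlapped the other in any of the 4. Without the collagen limit the log2 fold change of ID1 was 0.0066. Of 15 tested genes 6 lay above both controls in both 1797 libraries and 3 below, where 17.6% and 21.7% of all genes did, and the median was 0.28 (0.16 to 0.53 with 1 library left out).

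Secreted signals and matrix had no member that passed the test. KITLG had 417 and 700.1 CPM in the 1797 libraries, against 249.5 and 345 CPM in the controls (0.94 ± 0.32, edgeR adjusted p = 0.521), and the groups did not overlap. Both 1797 libraries lay above both controls for 17.6% of all tested genes. IGF1, a growth factor for bone, had 28.6 and 19.8 against 146 and 54.3 CPM (-1.99 ± 0.50, edgeR adjusted p = 0.44). BMP2, BMP4 and BMP6 had log2 fold changes of 0.07, -0.08 and 0.07. Of 14 basement membrane genes 12 had a higher estimate (median 0.23, 0.03 to 0.53 with 1 library left out), yet 0 had an unadjusted p under 0.05. COL4A1 overlapped, at 3164 and 2163 against 1692 and 2812 CPM.

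Activation and sprouting genes were uneven between libraries. SELE had 144 and 95 CPM in the 1797 libraries, against 5.42 and 65.9 CPM in the controls (1.92 ± 0.74, edgeR adjusted p = 0.544), with UMIs in 90 of 290 and 9 of 41 cells of the 1797 libraries and 1 of 48 and 4 of 35 of the controls. APLN had 73.7 and 65.2 against 43.4 and 31.0 CPM (0.92 ± 0.38, edgeR adjusted p = 0.587). Of 13 sprouting genes 11 had a higher estimate, with a median of 0.20 that ran from -0.18 to 0.62 with 1 library left out. CCL2 and CXCL8, chemokines for monocytes and neutrophils, overlapped, at 228 and 369.9 against 458 and 139.6 CPM for CCL2 and 106 and 361 against 263 and 96.9 CPM for CXCL8. PECAM1 and FLT1 overlapped too, at 1449.9 and 1497 against 1149.9 and 1714 CPM and 1183 and 1246 against 1158 and 1811 CPM.

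Most interferon and immediate early genes had lower estimates with 1797, without passing the test. Of 17 interferon genes 14 were lower (median -0.37, -0.62 to -0.15 with 1 library left out), and IFI6, a mitochondrial interferon-induced protein, had 142 and 135 CPM in the 1797 libraries, against 309 and 334 CPM in the controls (-1.18 ± 0.27, edgeR adjusted p = 0.403). Of 26 dissociation and immediate early genes 19 were lower (median -0.29), but the median was 0.00189 without control library 2. KLF2, which is also in the flow response list, had 234 and 225 against 334 and 388 CPM (-0.62 ± 0.25, edgeR adjusted p = 0.582). Without the collagen limit its log2 fold change was 0.075. None of these genes passed edgeR's test over all genes, and 10 of 26 lists had a median above 0, or 5 to 19 with 1 library left out.

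**Figure D5:**
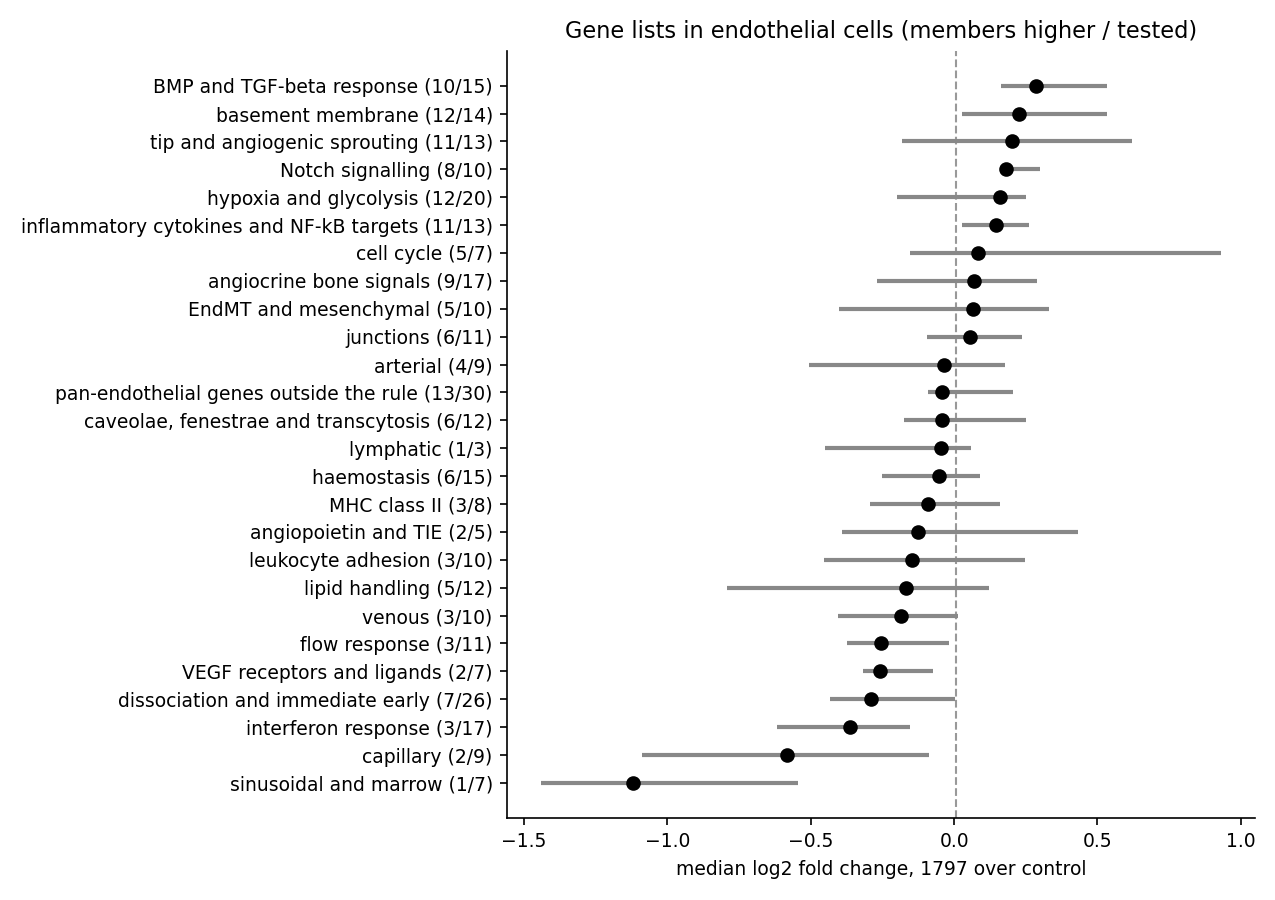
Median log2 fold change, 1797 over control, of the tested members of 26 gene lists (dots), with the range when each library is left out in turn (lines) and the median of all tested genes (dashed line, 0.00483). The sinusoidal and marrow list, which holds STAB2, lies furthest from 0, at -1.12, and the brackets give members with a higher estimate over members tested.

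Transcripts of other cells were found in the endothelial sums and differed between libraries. The summed fibroblast and osteoblast markers were at 719.8 and 499 CPM in the 1797 libraries, against 900.4 and 725 CPM in the controls, and neutrophil markers at 140.2 and 816 CPM in the 1797 libraries, against 347 and 694 CPM in the controls. The neutrophil gene S100A8 had a UMI in endothelial cells at shares of 2.76% and 14.6% in the 1797 libraries, against 2.08% and 48.6% in the controls. In T cells the shares were 2.58% and 12.8% in the 1797 libraries, against 2.02% and 44.4% in the controls, so the order of the libraries was the same in both cell types. The part of such transcripts in the values above was not tested.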

How the data were processed

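Droplet single-cell RNA libraries of 4 samples were used, 2 of the 1797 peptide and 2 of the control peptide. The deposited matrices hold unnormalized UMI counts, by gene and barcode, for 20648 genes. The submitters' processing notes name Cell Ranger 5.0.0 and Sscrofa11.1, and the file headers name version 7.0.1. Cells with at least 200 genes and under 20% mitochondrial UMIs were kept, and the rule for endothelial cells was applied to their counts. Scrublet in scanpy 1.11.5 called doublets at an expected rate of 0.1, and they were kept in the main values. Doublet removal before deposit is not given in the sources used here.

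Counts were summed per library and tested with edgeR 4.0.16 (quasi-likelihood test, TMM scaling, filterByExpr, Benjamini-Hochberg adjustment, threshold 0.05) in R 4.3.3. Endothelial and other cells were compared with the library as a block, since both come from the same library. CPM are UMIs of the summed cells scaled to 1 fixed total per library. DESeq2 1.42.0 was an alternative. Clusters within the endothelial cells were found by Leiden clustering (igraph 0.11.9, resolution 1.0, 2000 variable genes, 15 principal components, 15 neighbours). Their ratios had 5 CPM added to both sides and used genes with at least 10 UMIs. Shares were compared by an exact permutation test.

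Genes named were those called, up to 4 members of each list by level and up to 3 by unadjusted p, the 15 largest folds over other cells among genes with at least 50 CPM, a set of vessel genes, and the leading genes of each cluster. ICAM2, S100A8 and other genes of the lists were named after their values were seen. The members and lists were chosen with earlier results of these data known. On simulated data of 5 runs, the comparison of 1797 with control was scored on changed genes that passed the filter on low counts. It recovered 21 of 388 genes changed by a log2 fold change of 1 (5.41%) and 260 of 417 changed by 2 (62.4%). There were 7 false calls over the runs, and changed genes that failed the filter were not counted. Alternatives covered scaling, the filter on low counts, cell filters, the rule, doublets, the replicate block and each library left out.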

Additional observations from a re-analysis of the deposited data

How the results depend on the processing

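Genes called between 1797 and control in endothelial cells numbered 1 in the values given, and also 1 with RLE size factors and with doublets removed. They numbered 129 with no filter on low counts, 25 with DESeq2, 2 with PTPRC also at 0 and 8 to 71 with 1 library left out, where a group's lone sample is assumed to vary like the other group. They numbered 0 with the stricter cell filter (547 at an unadjusted p under 0.05) and with 4 rule genes (578). Among alternatives chosen after seeing the data, they numbered 2 without the leukocyte clusters and 0 without the collagen limit (565) or without exclusion genes (254). The cause was not tested. The difference in share was -0.0148 to 1.99 percentage points with 1 library left out. The comparison with stromal and mural cells called 2653 to 3390 genes with 1 library left out, and that with all other cells 3894 to 4977. The number of lists with a median above 0 was 5 to 19.

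The labels number the libraries of each group without saying that a number pairs them, and deviations of same-numbered libraries had a correlation of -0.0201 over 6836 genes. With the number as a replicate block, 0 genes were called by edgeR (474 at an unadjusted p under 0.05).

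Of 534 log2 fold changes of 36 genes in 15 settings, 488 kept their direction and side of the threshold, 25 newly passed it, 5 no longer did and 16 changed sign. Without the collagen limit these were FLT1 (0.204), KLF2 (0.075), ADGRG6 (-0.103), ADM (-0.222), ID1 (0.0066) and SERPINE2 (0.37). Without exclusion genes they were FLT1 (0.167), KLF2 (0.0782), FABP5 (0.299), ADM (-0.103), MRC1 (0.125), ID1 (0.195) and IER3 (-0.0468). ADGRG6 was at -0.22 with PTPRC also at 0. With 1 library left out PECAM1 ran from -0.157 (without control library 1) to 0.429, and FLT1 from -0.516 to 0.139 (without control library 2). The 41, 48 and 35 endothelial cells in 3 of the libraries limit the precision of every value between the peptides.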
